A study of Mus musculus with 74 samples.

Results

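Spinal cord microglia were compared between SOD1-G93A mice that carried bone marrow from wildtype human SOD1 donors (WT marrow) and SOD1-G93A mice that carried bone marrow from SOD1-G93A donors (G93A marrow), both taken at the early symptomatic stage. The comparison holds 6 of the 74 libraries of the series, 3 with WT marrow and 3 with G93A marrow, chosen by their labels alone. All recipients were female mice on C57BL/6J that carry mutant human SOD1-G93A, a transgene that causes a motor neuron disease used as a model of amyotrophic lateral sclerosis, and all were grafted at disease onset, so that by their labels the groups differ in the donor only. WT donors also carry a human SOD1 transgene, without the mutation. Each library came from the spinal cord of 1 mouse, from cells bound by magnetic beads against CD11b after a density gradient that removes myelin, and no enzyme or warm incubation was used. The sources used here do not give the age of these mice, the conditioning before the graft or the share of donor-derived cells in the spinal cord, so resident and marrow-derived cells cannot be told apart. The series also has 6 libraries of grafted microglia at end stage, which are given side by side below, and non-grafted microglia, which supply a direction of disease change.

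Microglia are the resident macrophages of the central nervous system and persist by self-renewal under the control of the receptor encoded by Csf1r. In the SOD1-G93A spinal cord they lose part of their resting expression program, marked by P2ry12 and Tmem119, and gain a program of lipid handling, phagocytosis and lysosomal genes, marked by Apoe, Trem2, Cst7, Spp1 and Gpnmb. Marrow grafts replace blood-borne myeloid cells, including the macrophages of peripheral nerves, and the series asks how that replacement bears on microglia. CD11b is present on microglia and also on neutrophils, monocytes and other macrophages, so the beads do not separate these cells.

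Values are FPKM, which are fragments scaled by the length of the transcript and by the mapped fragments of the library. The depth of the libraries is unknown, and no value carries a counting interval for that reason. FPKM summed to between 483480 and 564031 in a library, and between 10443 and 11867 genes reached 1 FPKM. The defining genes of microglia were present in every library: Csf1r was at 377 FPKM or more and Tmem119 at 185 or more. WT-marrow replicate 3 stood apart from the rest. Over the 11143 genes tested its correlation with the other 5 libraries was 0.629 to 0.836 on the log2(FPKM + 1) scale, and the lowest value of each of the other 5 was its correlation with this library. The 10 oligodendrocyte and 11 astrocyte markers together held 9.75% of its FPKM sum and 2.09% of that of WT-marrow replicate 2. In WT-marrow replicate 1 they held 0.356%, and in the G93A-marrow replicates 0.239%, 0.202% and 0.612%. Features on the mitochondrial genome held 2.69%, 3.43% and 6.54% of the sum in the WT-marrow libraries and 1.545%, 1.77% and 1.70% in the G93A-marrow libraries. G93A-marrow replicate 3 stood apart in blood genes: the 12 neutrophil markers summed to 17808 FPKM there and to 133.1 to 1737 FPKM in the other 5. List medians below are therefore given with all 6 libraries and without WT-marrow replicate 3.

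No gene passed the test. With limma on log2(FPKM + 1), 0 of 11143 genes (0.0%) had a Benjamini-Hochberg adjusted p under 0.05, and the smallest adjusted p was 0.407. At an unadjusted p under 0.05 there were 1039 genes higher with WT marrow (9.32%) and 190 lower (1.71%), and without WT-marrow replicate 3 there were 205 higher and 18 lower, with 0 at an adjusted p under 0.05. Without G93A-marrow replicate 1 or 2, 603 and 555 genes had an unadjusted p under 0.05 and 0 were called. Without WT-marrow replicate 1, the library most like the G93A-marrow group, limma called 1256 genes, 1105 of them higher. The 3 WT-marrow libraries all lay above the 3 G93A-marrow libraries for 580 genes (5.21%) and all below for 630 genes (5.65%), and without WT-marrow replicate 3 these shares were 7.14% and 7.31%. WT-marrow replicate 1 lay inside the range of the 3 G93A-marrow libraries for 58.5% of genes, replicate 2 for 41.2% and replicate 3 for 17.5%. All differences below are therefore descriptions of these libraries. A difference is the WT-marrow mean minus the G93A-marrow mean of log2(FPKM + 1), with its SE, and this scale makes differences of genes at low FPKM smaller. Over all tested genes its median was -0.06, and 0.01 without WT-marrow replicate 3.

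**Figure D1:**
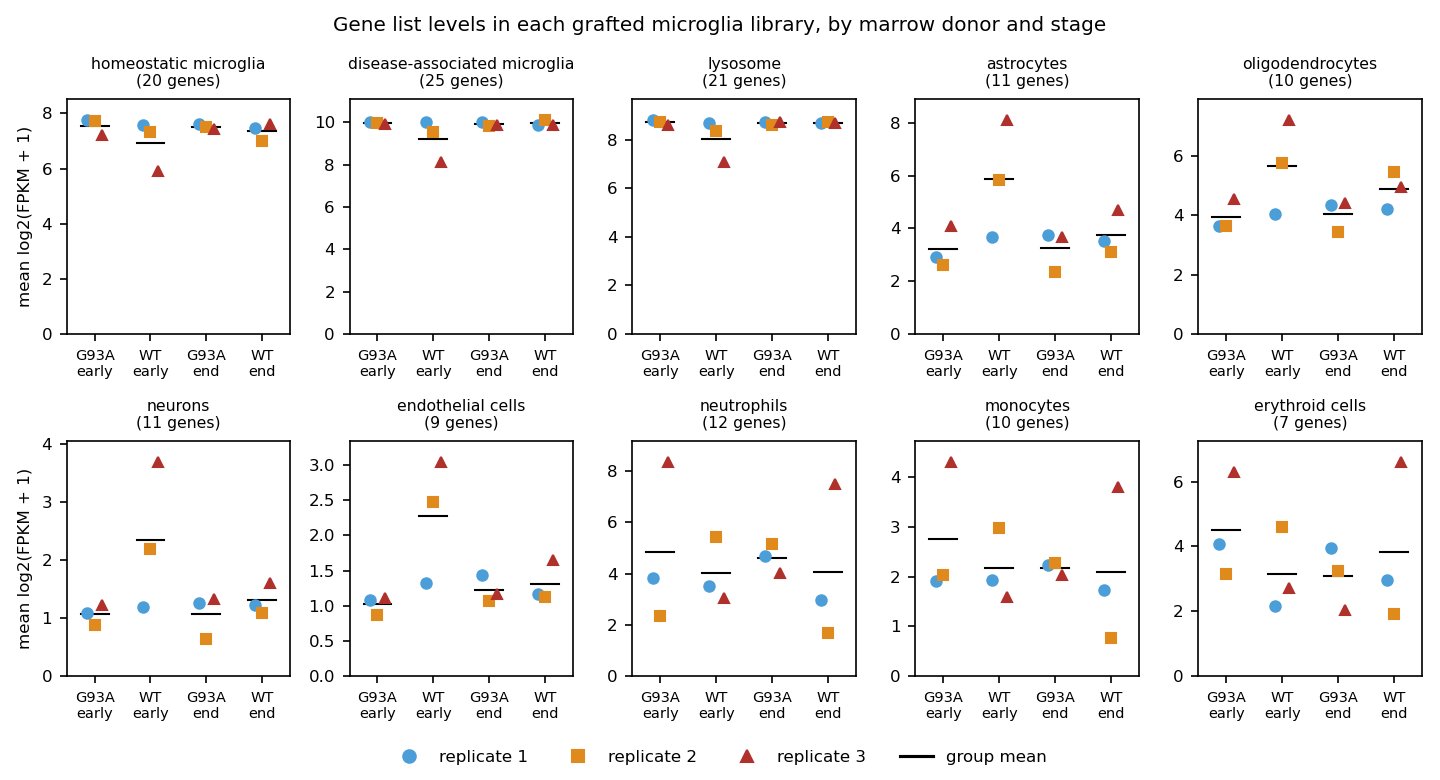
Mean of log2(FPKM + 1) over the measured genes of 10 lists (y axis) in each of the 12 grafted microglia libraries, by marrow donor and stage (x axis); points are single libraries and black lines are group means. WT-marrow replicate 3 in early symptoms is highest for astrocytes (8.10), oligodendrocytes (7.21), neurons (3.68) and endothelial cells (3.04), and lowest for homeostatic (5.92) and disease-associated microglia (8.10).

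The 10 largest differences without overlap were all positive and were carried mainly by WT-marrow replicates 2 and 3. They include the astrocyte marker Slc1a2 and the endothelial marker Cldn5. The other 8 genes are on none of the lists, which are short, so this does not tell which cells express them. With terms for the oligodendrocyte and astrocyte scores of each library in the fit, the 10 differences were from 0.17 (Fads2) to 1.11 (Itih3). Slc1a2 (chromosome 2, 102658662 to 102790784, mm10), the main glutamate transporter of astrocytes, was at 1.48, 1.26 and 3.80 FPKM in G93A-marrow replicates 1 to 3 and at 4.40, 26.01 and 103.4 FPKM in WT-marrow replicates 1 to 3. The groups did not overlap, and WT-marrow replicate 1 lay just above the highest G93A-marrow library. The difference was 3.05 ± 0.85 (log2, SE; limma adjusted p = 0.407), and 2.01 without WT-marrow replicate 3. Itih3 (chromosome 14, 30908573 to 30923589), which encodes a heavy chain of an inhibitor that binds hyaluronan, had the largest difference of the non-overlapping genes that reached a mean of 5 FPKM in 1 group. Its values were 0.53, 1.51 and 4.35 FPKM with G93A marrow against 5.84, 37.2 and 110.8 FPKM with WT marrow (3.49 ± 0.91, and 2.56 without WT-marrow replicate 3). The others of the 10 largest were Htra1, Gpm6a, Paqr8, Fads2, Adcyap1r1, Id3, Timp4 and Cldn5, with differences from 2.76 to 3.17, and from 1.68 to 2.31 without WT-marrow replicate 3. Cldn5 (chromosome 16, 18776846 to 18778262), the tight junction claudin of endothelial cells, was at 1.02, 0.55 and 0.80 FPKM against 1.70, 14.7 and 40.5 FPKM.

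All 11 astrocyte markers were higher on average with WT marrow, with a median of 2.70, and 1.65 without WT-marrow replicate 3. Of these 11, 4 did not overlap between the groups, beside 5.21% over all genes. Their summed level was 375 to 1079 FPKM with G93A marrow and 648 to 19078 FPKM with WT marrow. Gfap, the intermediate filament of reactive astrocytes, was at 232, 275 and 613 FPKM with G93A marrow and at 352, 1702 and 11084 FPKM with WT marrow. WT-marrow replicate 1 lay within the G93A-marrow range, and replicates 2 and 3 lay above it. The water channel gene Aqp4 (8.73, 9.42 and 18.8 against 21.3, 75.5 and 322 FPKM) and Slc1a3, a second glutamate transporter (9.89, 7.23 and 7.21 against 9.92, 18.6 and 66.25 FPKM), did not overlap. In Slc1a3 the gap between the closest libraries of the groups was 9.89 against 9.92 FPKM.

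The 10 oligodendrocyte markers had a median of 1.70, and 0.96 without WT-marrow replicate 3, with none free of overlap. Their sum was 675 to 2375 FPKM against 1320 to 28046 FPKM. Mbp, which encodes myelin basic protein, was at 662, 446 and 1786 FPKM with G93A marrow and at 951, 5325 and 21258 FPKM with WT marrow, a difference of 2.56 ± 0.90 (limma adjusted p = 0.407), and 1.48 without WT-marrow replicate 3. WT-marrow replicate 1 lay between G93A-marrow replicates 1 and 3, so the difference rested on replicates 2 and 3. The 7 tested neuronal markers had a median of 1.54 (0.67 without WT-marrow replicate 3), and WT-marrow replicate 1 lay inside the G93A-marrow range for all 7. Snap25, a synaptic vesicle fusion gene, was at 5.99, 3.75 and 8.59 FPKM against 8.26, 41.45 and 130.8 FPKM. Of 6 tested endothelial markers, 5 did not overlap between the groups, beside 5.21% over all genes, and the median was 1.5 (1.07 without WT-marrow replicate 3). Some gaps were small and at low levels. The closest libraries of the groups were at 1.45 and 1.49 FPKM for Slco1a4, 0.50 and 0.61 for Pecam1, and 2.31 and 2.57 for Ly6c1. Medians of 1.20 for the 3 tested oligodendrocyte precursor markers, 1.26 for 2 pericyte and fibroblast markers and 1.35 for 2 ependymal markers rest on few genes, and were 0.60, 0.62 and 0.66 without WT-marrow replicate 3. The precursor marker Cspg4 lay on the other side, at 15.9, 28.5 and 11.35 FPKM against 7.89, 11.15 and 6.60 FPKM.

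Blood cell markers differed between single libraries more than between the groups. S100a8, which encodes a calcium-binding protein of neutrophils, was at 228, 49.1 and 6605 FPKM with G93A marrow and at 214, 578 and 66.2 FPKM with WT marrow. The hemoglobin gene Hba-a1 was at 184, 71.8 and 1419 FPKM against 37.2, 354 and 51.6 FPKM. G93A-marrow replicate 3 was the highest library for both genes, and WT-marrow replicate 2 came second. The lists had medians of -0.98 for 12 neutrophil genes, -0.67 for 8 monocyte genes and -1.72 for 6 erythroid genes, with 1 monocyte gene (Fn1) free of overlap and lower, where 5.65% of all genes were. Without WT-marrow replicate 3 these medians were -0.23, -0.35 and -1.38. Without G93A-marrow replicate 3 the medians became 0.96, 0.40 and -0.53. Ccr2, the chemokine receptor of blood monocytes, was at 3.29, 4.28 and 14.1 FPKM against 2.70, 10.9 and 2.63 FPKM. T and NK cell genes had a median of -0.14 over 5 genes, which turned to 0.30 without WT-marrow replicate 3 and was 1.3 in WT-marrow replicate 1 alone. B cell genes had a median of -0.95 over 2 genes, and -0.78 without WT-marrow replicate 3. No mast cell or basophil gene reached the mean of 1 FPKM needed for a test.

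Homeostatic microglial genes overlapped between the groups in all 20 cases. Their median difference was -0.65, and -0.11 without WT-marrow replicate 3, and that library was the lowest of the 6 for 18 of 20 genes. In bulk samples, fewer cells of a type and less RNA per cell cannot be told apart. P2ry12, the purinergic receptor of resting microglia, was at 252, 218 and 177 FPKM with G93A marrow and at 266, 180 and 38.9 FPKM with WT marrow. WT-marrow replicate 1 was thus the highest of the 6 libraries and replicate 3 the lowest. The fractalkine receptor gene Cx3cr1 was at 637, 694 and 473 FPKM against 604, 626 and 184 FPKM, a difference of -0.53 ± 0.45 with all libraries and 0.05 without WT-marrow replicate 3. Sall1, a transcription factor that maintains microglial identity, was at 15.4, 17.4 and 9.36 FPKM against 14.9, 14.3 and 7.94 FPKM. The exceptions, named after their values were seen, were Crybb1 and Sparc, and Sparc was highest in WT-marrow replicate 3. With terms for the oligodendrocyte and astrocyte scores of each library in the fit, the median of the homeostatic list was 0.09.

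Disease-associated microglial genes gave a like picture. Of 25 genes, 24 had a difference below 0, with a median of -0.79, and WT-marrow replicate 3 was the lowest library for the same number, 24. Without that library the median was -0.17, and in WT-marrow replicate 1 alone it was 0.01 against the G93A-marrow mean. The fit with glial terms gave 0.07. Cst7 (chromosome 2, 150570414 to 150578944), which encodes an inhibitor of cathepsins, was at 1967, 1953 and 1308 FPKM with G93A marrow and at 1884, 746 and 165 FPKM with WT marrow. WT-marrow replicate 1 lay in the G93A-marrow range, and replicates 2 and 3 lay below it. The difference was -1.48 ± 0.64 (limma adjusted p = 0.435), and -0.53 without WT-marrow replicate 3. Spp1, which encodes osteopontin, was at 5012, 10632 and 5327 FPKM against 4743, 3510 and 913 FPKM, so that its groups did not overlap in FPKM. With the mean log2 level of the homeostatic list in each library subtracted, Spp1 overlapped (4.543, 5.651 and 5.18 against 4.632, 4.446 and 3.914). Apoe, the lipid carrier, was at 32015, 20374 and 43230 FPKM against 32829, 31699 and 13570 FPKM, and its difference was 0.08 without WT-marrow replicate 3. The glycoprotein gene Gpnmb was at 1391, 1031 and 1894 FPKM against 1513, 1861 and 842 FPKM. The innate receptor genes Trem2 (1928, 1346 and 1905 against 1723, 1386 and 496 FPKM) and Clec7a (311, 332 and 242 against 351, 204 and 55.6 FPKM) overlapped as well.

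The balance between both programs was close in the groups. The mean log2 level of the disease-associated list minus that of the homeostatic list was 2.28, 2.25 and 2.71 with G93A marrow and 2.42, 2.22 and 2.18 with WT marrow. The highest value was that of G93A-marrow replicate 3, and the other 5 libraries lay within 2.18 to 2.42. WT-marrow replicate 3, which was lowest in both lists, was also lowest in this balance.

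**Figure D2:**
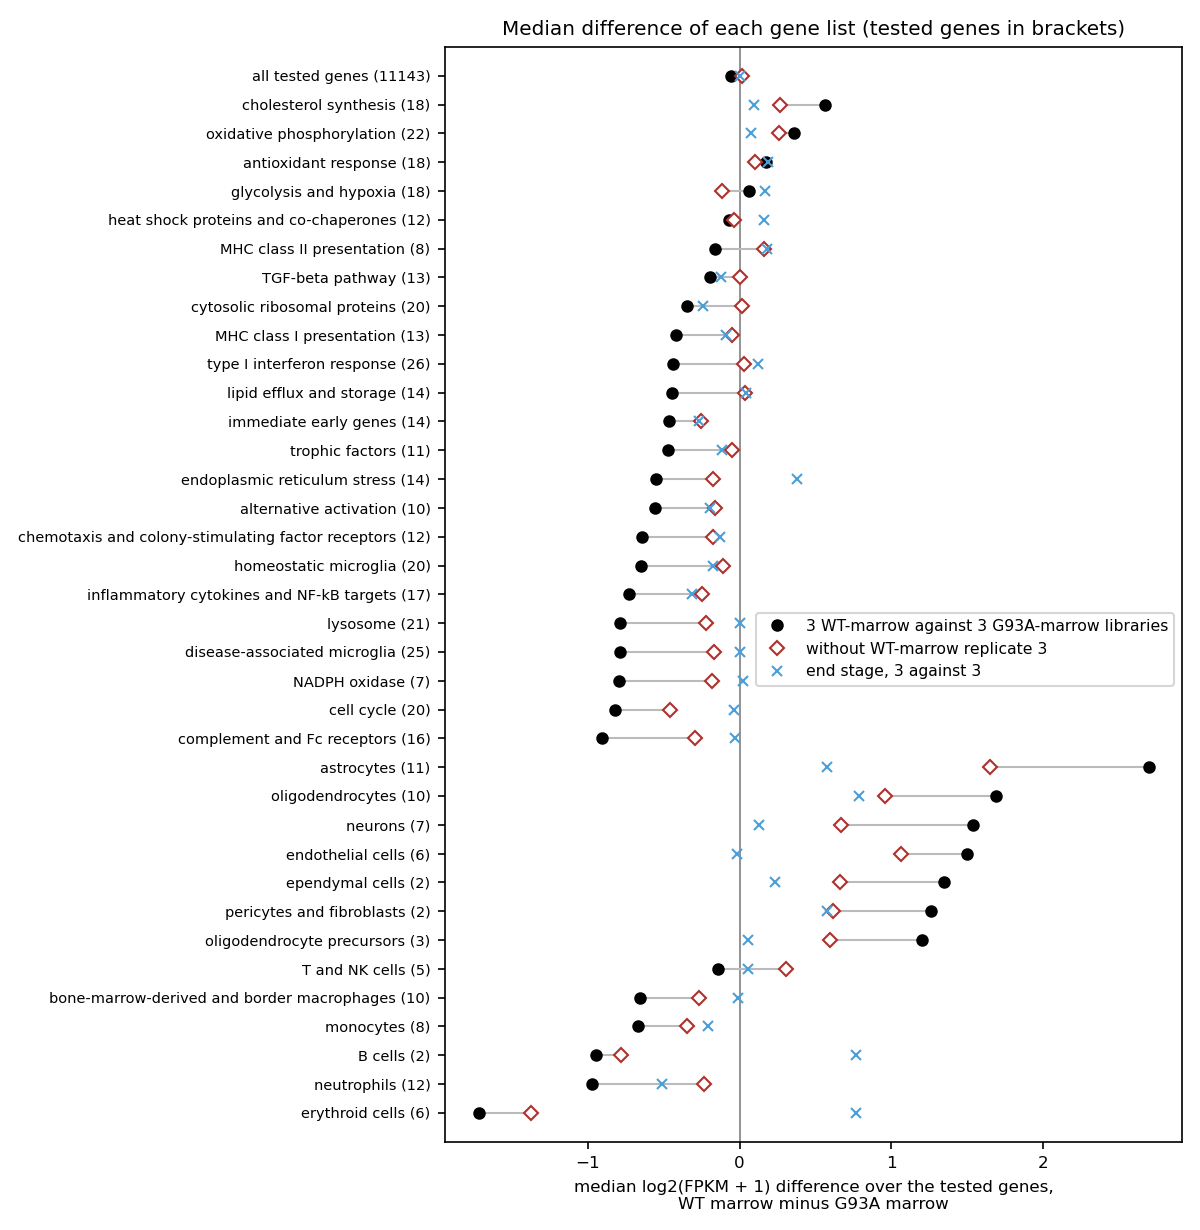
Median difference in log2(FPKM + 1), WT marrow minus G93A marrow (x axis), over the tested genes of each list (y axis), with all 6 early libraries (black), without WT-marrow replicate 3 (red diamonds) and at end stage (blue crosses). Without WT-marrow replicate 3 the disease-associated list moves from -0.79 to -0.17 and the cell cycle list from -0.82 to -0.46.

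Cell cycle genes were the program list with the most genes free of overlap. All 20 tested genes had a difference below 0, and for 10 of 20 the 3 WT-marrow libraries lay below all 3 G93A-marrow libraries, beside 5.65% over all genes. The median was -0.82. It was -0.46 without WT-marrow replicate 3, with the count again at 10 of 20 beside 7.31% over all genes, and -0.42 in WT-marrow replicate 1 alone. Cdk1 (chromosome 10, 69336635 to 69352939), the mitotic kinase, was at 6.27, 6.75 and 6.45 FPKM with G93A marrow and at 4.81, 2.96 and 0.78 FPKM with WT marrow. The G93A-marrow libraries lay close together and each WT-marrow library lay below them. Its difference was -1.12 ± 0.39 (limma unadjusted p = 0.0130, adjusted p = 0.407), and -0.64 without WT-marrow replicate 3. Tyms (chromosome 5, 30058200 to 30073625), the thymidylate synthase of DNA replication, was at 13.1, 15.7 and 10.7 FPKM against 8.56, 5.79 and 1.65 FPKM (-1.33 ± 0.50, and -0.80 without WT-marrow replicate 3). The cyclin genes Ccna2 (6.11, 12.3 and 11.8 against 4.58, 5.37 and 2.27 FPKM) and Ccnb1 (3.95, 6.88 and 3.09 against 2.96, 1.5 and 0.70 FPKM) did not overlap either. The other 10 genes overlapped. One of them, named after its values were seen, was the proliferation marker Mki67 at 3.05, 4.98 and 1.81 FPKM against 2.61, 2.56 and 0.50 FPKM. The list's median was -0.41 in the fit with glial terms. With libraries scaled to the homeostatic list it was -0.34, where the median of all tested genes was 0.50. Under that scaling the medians were -0.05 for the homeostatic list, -0.18 for the disease-associated list and -0.30 for complement and Fc receptors. With the mean log2 level of the homeostatic list in each library subtracted, Cdk1 and Tyms stayed free of overlap, and Ccna2 and Ccnb1 overlapped. In FPKM, WT-marrow replicate 3, the library with the most glial RNA, was the lowest for all 20 genes.

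**Figure D3:**
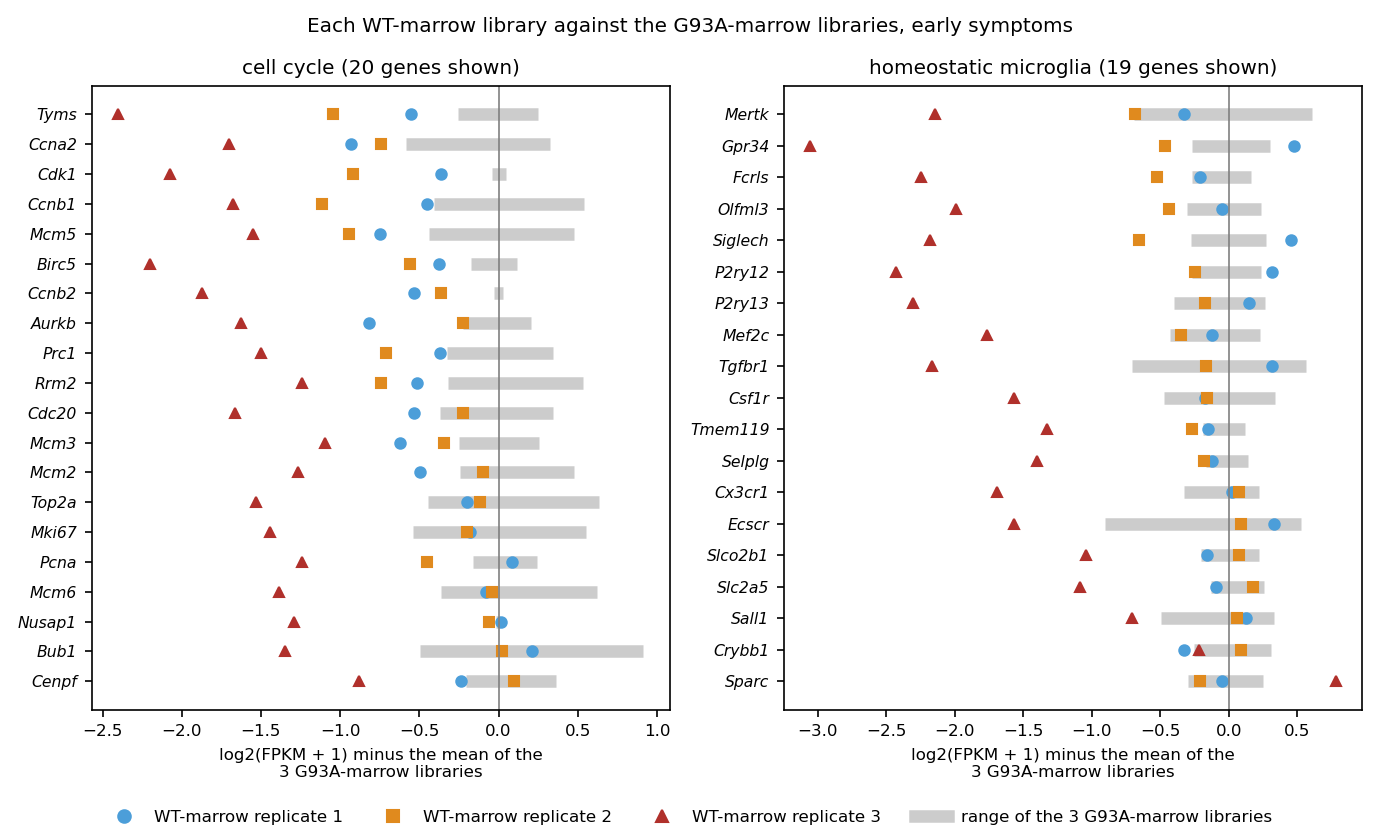
Each WT-marrow library in early symptoms (symbols) for the 20 cell cycle genes and 19 homeostatic microglial genes (y axis), as log2(FPKM + 1) minus the mean of the 3 G93A-marrow libraries (x axis); grey bars are the range of those 3. WT-marrow replicate 1 lies below the grey bar for 14 of 20 cell cycle genes and for 1 of the 19 homeostatic genes shown.

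Mouse Sod1 (chromosome 16, 90220742 to 90226331), which encodes the cytosolic superoxide dismutase, differed with little spread within the groups. It was at 25.7, 28.5 and 29.9 FPKM with G93A marrow and at 47.3, 39.4 and 45.6 FPKM with WT marrow. All 3 WT-marrow libraries lay above the G93A-marrow range, and WT-marrow replicate 1 was the highest. Its share of glial markers lay within the G93A-marrow range, and it was also the highest library for 16 of 20 ribosomal protein genes. The part of glial RNA or of single libraries in the difference was not tested. The difference was 0.63 ± 0.28 (limma unadjusted p = 0.0409, adjusted p = 0.438), and 0.61 without WT-marrow replicate 3. At end stage it lay on the other side, at 46.2, 28.1 and 41.5 FPKM with G93A marrow against 36.3, 18.7 and 28.35 FPKM with WT marrow, with overlap. The change of the marrow difference between the stages was -1.11 ± 0.40 (limma interaction, unadjusted p = 0.0146, adjusted p = 0.901). The sources used here do not say how reads of the human SOD1 transgenes, which hosts and donors carry, were kept apart from this mouse gene. Of the 18 antioxidant genes, 10 were above 0 and 1 (Sod1) was free of overlap and higher, close to the 5.21% over all genes, with a median of 0.18 and of 0.10 without WT-marrow replicate 3. Prdx6, a peroxiredoxin gene, was at 62.3, 56.6 and 124.6 FPKM against 91.6, 253 and 941 FPKM, with WT-marrow replicate 1 inside the G93A-marrow range.

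Genes of macrophages at the borders of the nervous system and from marrow were below 0 in all 10 tested cases, where 5034 of all 11143 genes lay above 0. Their median was -0.66, and -0.27 without WT-marrow replicate 3. WT-marrow replicate 3 was the lowest of the 6 libraries for 9 of the 10 genes. With libraries scaled to the homeostatic list the median was -0.14, where the median of all tested genes was 0.50. Under that scaling it lay between the medians of the homeostatic list (-0.05) and the disease-associated list (-0.18). Folr2 (chromosome 7, 101839988 to 101857200), a folate receptor gene of border macrophages, was at 3.37, 4.24 and 4.33 FPKM with G93A marrow and at 1.75, 1.42 and 0.86 FPKM with WT marrow. The groups were well separated in FPKM, though the levels are low. With the mean log2 level of the homeostatic list in each library subtracted, Folr2 overlapped. Its values were then -5.62, -5.335 and -4.785 with G93A marrow against -6.12, -6.056 and -5.028 with WT marrow. In log2(FPKM + 1) the difference of Folr2 was -1.10 ± 0.29 (limma unadjusted p = 0.00225, adjusted p = 0.407), and -0.94 without WT-marrow replicate 3. Mrc1, the mannose receptor of border macrophages, was at 0.76, 2.48 and 2.74 FPKM against 1.59, 3.27 and 0.71 FPKM and so did not follow Folr2. Ms4a7, a macrophage membrane gene, was at 240, 157.5 and 418 FPKM against 329, 248 and 48.8 FPKM. Tmem176a was the other gene of this list free of overlap, at 358, 365 and 390 FPKM against 320, 218 and 136.2 FPKM. Free of overlap and lower in FPKM were thus 2 of 10 genes, beside 5.65% over all genes. Relative to the homeostatic list level, Tmem176a overlapped as well (0.74, 0.791 and 1.413 against 0.746, 0.446 and 1.177).

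**Figure D4:**
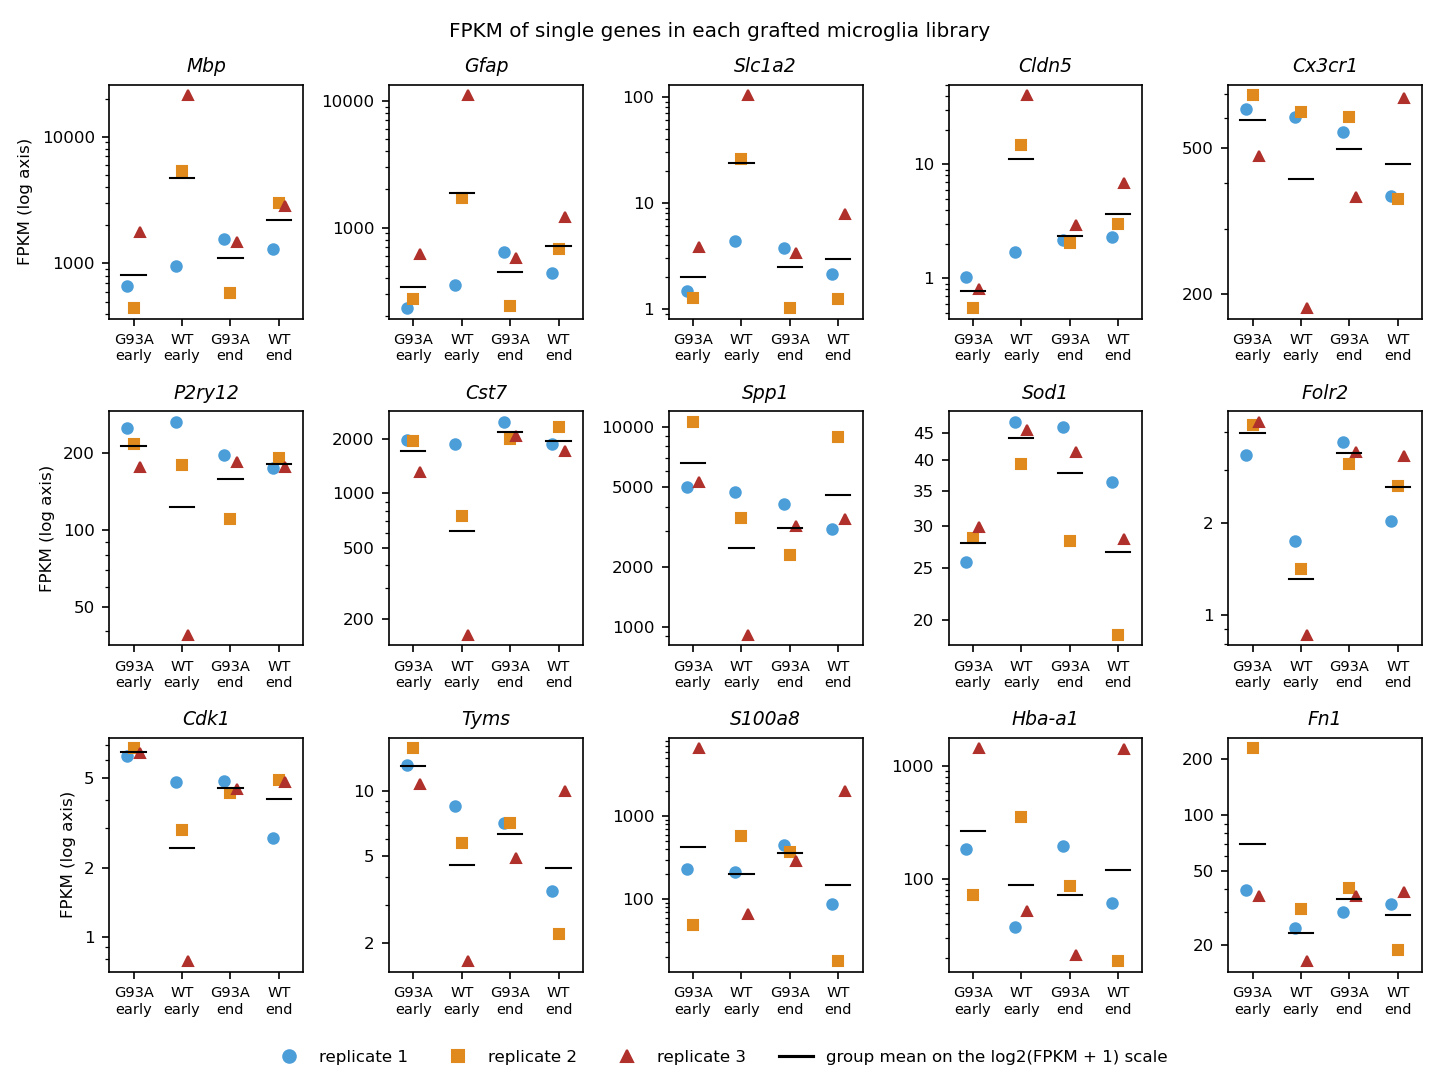
FPKM of 15 genes (y axis, log scale) in each grafted microglia library, by marrow donor and stage (x axis); points are single libraries and black lines are group means on the log2(FPKM + 1) scale. Sod1 is at 39.4 to 47.3 FPKM with WT marrow against 25.7 to 29.9 FPKM with G93A marrow in early symptoms, and the groups overlap at end stage.

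The 10 largest negative differences, chosen by the same rule, were smaller than the positive ones, from -1.27 to -1.59, and from -0.69 to -1.46 without WT-marrow replicate 3. They were Colec12, Fn1, Fmr1nb, Cd244, Saa3, Ccl7, Clec4n, Spp1, Tyms and Cd5. With the mean log2 level of the homeostatic list in each library subtracted, Colec12, Cd244 and Tyms stayed free of overlap. The others of the 10 overlapped. Colec12, a scavenger receptor gene, was at 32.3, 47.4 and 21.4 FPKM with G93A marrow and at 21.25, 9.18 and 4.83 FPKM with WT marrow, so that the closest libraries of the groups nearly met. Fn1 (chromosome 1, 71585473 to 71653234), which encodes fibronectin, was at 39.3, 228 and 36.9 FPKM against 24.8, 31.2 and 16.4 FPKM, and 1 library, G93A-marrow replicate 2, held the high value. Without that library the difference of Fn1 went from -1.53 to -0.68 and that of Ccl7 from -1.45 to -0.74. The same library was highest for Saa3, an acute phase gene (3.05, 10.4 and 6.77 against 1.25, 3.03 and 0.89 FPKM), and for Ccl7, a monocyte chemokine gene (3.06, 16.1 and 2.76 against 2.14, 2.19 and 0.27 FPKM).

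Immune effector lists were mostly below 0 with all 6 libraries and closer to 0 without WT-marrow replicate 3. The 16 complement and Fc receptor genes had medians of -0.91 and -0.29 in these settings, the 21 lysosomal genes -0.79 and -0.22, and the 7 NADPH oxidase genes -0.80 and -0.19. C1qa, a subunit of the complement initiator C1q, was at 4892, 4304 and 4442 FPKM against 4077, 2871 and 1007 FPKM, and its groups did not overlap. Ncf1, a cytosolic subunit of the NADPH oxidase, was at 91.5, 101 and 100.4 FPKM against 72.2, 70.5 and 26.7 FPKM, also without overlap. Cybb, the membrane subunit of the same enzyme, was at 116.3, 170.0 and 158 FPKM against 142.5, 159 and 46.65 FPKM. With the mean log2 level of the homeostatic list in each library subtracted, C1qa and Ncf1 overlapped. C1qa was then at 4.508, 4.347 and 4.918 against 4.414, 4.157 and 4.054. Ncf1 was at -1.217, -1.046 and -0.536 against -1.386, -1.17 and -1.131. Of the complement, lysosomal and NADPH oxidase lists, 3 of 16, 2 of 21 and 3 of 7 genes were free of overlap and lower in FPKM. None was higher, and 5.65% of all genes were lower. For the lysosomal list the count of 2 is near that share. The 17 cytokine genes and NF-kB targets had medians of -0.73 and -0.25, with 3 of 17 free of overlap and lower, beside the same 5.65%. Il1b, the inflammatory cytokine gene, was at 8.83, 17.4 and 54.3 FPKM against 9.38, 7.36 and 3.03 FPKM, with its high value in the library with the most neutrophil RNA. For the 12 chemotaxis and colony-stimulating factor receptor genes the medians were -0.65 and -0.17, and for the 10 alternative activation genes -0.56 and -0.16. The fit with glial terms gave 0.02 for complement and Fc receptors and 0.05 for lysosomal genes.

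MHC class I presentation genes were high in WT-marrow replicate 1 and low in replicate 3. For 9 of 13 MHC class I presentation genes WT-marrow replicate 1 was the highest of the 6 libraries, and for all 13 replicate 3 was the lowest. B2m, the light chain of MHC class I, was at 4571, 4235 and 3999 FPKM with G93A marrow and at 7135, 2321 and 553 FPKM with WT marrow. The list's median was -0.42 with all libraries, -0.05 without replicate 3 and 0.30 in replicate 1 alone. The 26 interferon response genes had medians of -0.44, 0.03 and 0.45 in the same settings, with none free of overlap. WT-marrow replicate 1 lay within the G93A-marrow range for 18 of these 26, and replicate 3 below it for 22. Ifi27l2a, an interferon-induced gene, was at 53.7, 101 and 64.9 FPKM against 149, 35.01 and 10.1 FPKM. The MHC class II invariant chain gene Cd74 was at 338, 313 and 583 FPKM against 484, 815 and 567 FPKM. The 8 class II genes had medians of -0.16 with all libraries and 0.16 without replicate 3, with WT-marrow replicate 1 inside the G93A-marrow range for 6 of 8. Cytosolic ribosomal protein genes followed the class I pattern, with replicate 1 the highest library for 16 of 20 genes, replicate 3 the lowest for 19 of 20, and medians of -0.35 and 0.01. Scaled to the homeostatic list, the medians were 0.19 for class I, 0.11 for interferon response, 0.42 for class II and 0.24 for ribosomal genes. Each was below the median of all tested genes under that scaling, which was 0.50. Each was also above the medians of the homeostatic list (-0.05) and the disease-associated list (-0.18) under that scaling.

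Oxidative phosphorylation and cholesterol synthesis genes had medians above 0. Of 22 oxidative phosphorylation genes 21 were above 0, with medians of 0.36 and of 0.26 without WT-marrow replicate 3, and 2 of 22 were free of overlap and higher, beside 5.21% over all genes. Ndufb9, a subunit of respiratory complex I, was at 111.9, 107 and 152 FPKM with G93A marrow and at 168, 168 and 280 FPKM with WT marrow. WT-marrow replicate 1 lay above the G93A-marrow range for 17 of 22 genes. Cox5b, a complex IV subunit gene, was at 95.4, 88.3 and 128.8 FPKM against 139, 134.4 and 205 FPKM. The 18 cholesterol synthesis genes had medians of 0.56 and 0.27, with 3 of 18 free of overlap and higher, beside the same 5.21%, and -0.03 in WT-marrow replicate 1 alone. Hmgcs1, an early enzyme of the pathway, was at 13.2, 20.5 and 11.4 FPKM against 12.7, 35.7 and 83.5 FPKM, and followed the libraries with much glial RNA. The fit with glial terms gave medians of 0.24 for oxidative phosphorylation and -0.13 for cholesterol synthesis.

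Other program lists had medians between -0.55 and 0.06 with all 6 libraries. They were -0.55 for 14 endoplasmic reticulum stress genes, -0.47 for 11 trophic factor genes, -0.46 for 14 immediate early genes, -0.44 for 14 lipid efflux and storage genes, -0.20 for 13 TGF-beta pathway genes, -0.07 for 12 heat shock genes and 0.06 for 18 glycolysis and hypoxia genes. Without WT-marrow replicate 3 they lay between -0.26 and 0.04. Igf1, the growth factor gene that disease-associated microglia express, was at 33.0, 33.5 and 31.6 FPKM with G93A marrow and at 32.6, 23.2 and 5.25 FPKM with WT marrow. Of the 14 immediate early genes, 4 were free of overlap and lower, beside 5.65% over all genes. Without WT-marrow replicate 3 the count was again 4, beside 7.31%. Myc, 1 of them, was at 10.1, 13.1 and 9.30 FPKM against 8.05, 6.93 and 5.11 FPKM. With the mean log2 level of the homeostatic list in each library subtracted, Myc overlapped (-4.271, -3.909 and -3.835 against -4.402, -4.344 and -3.312). Itgb8, an integrin that releases active TGF-beta, was at 0.71, 0.16 and 0.53 FPKM against 1.58, 2.61 and 9.94 FPKM, without overlap. These levels are low, and Itgb8 did not follow its list, in which 4 of 13 genes were above 0. It was the 1 gene of the 13 free of overlap and higher, beside 5.21% over all genes. Another 3 were free of overlap and lower, beside 5.65%. Arg1, an arginase gene of alternative activation, was at 0.05, 7.80 and 5.68 FPKM against 0.54, 0.00 and 0.19 FPKM, and Retnla, another such gene, reached 20.6 FPKM in WT-marrow replicate 2 and at most 0.82 FPKM in the other 5 libraries.

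Non-grafted microglia gave a direction of disease change. In end-stage SOD1-G93A mice against control mice labelled WT of the same age, limma called 330 of 11750 genes higher (2.81%) and 492 lower (4.19%), and 554 higher and 255 lower after median-ratio scaling. In all 822 genes were called, and 357, 480 and 426 without G93A end-stage replicate 1, 2 or 3, and 373 and 524 without WT replicate 3 or 4. Of the 330 higher in disease, 329 were tested here, and 17.9% had a difference above 0 with WT marrow, with a median of -0.30. Of the lower genes 435 were tested, and 75.4% lay above 0, with a median of 0.28. Beside these, 5034 of all 11143 genes lay above 0. Among the genes higher in disease 8.81% lay below in all 3 WT-marrow libraries, where 5.65% of all genes did, and among the genes lower in disease 12.87% lay above, where 5.21% of all genes did. Without WT-marrow replicate 3 the medians were -0.08 and 0.17, and in WT-marrow replicate 1 alone -0.09 and 0.15. At end stage they were -0.01 and 0.09. The contrast of non-grafted early symptomatic with presymptomatic SOD1-G93A mice, which matches the stage and was fitted once, with no library left out, called 2256 genes higher (19.2%) and 1881 lower (16%). The presymptomatic mice were also much younger, so disease and age cannot be told apart in this contrast. Of the genes it called, 2247 and 1492 were tested here. Their medians with WT marrow were -0.42 and 0.73 with all libraries, -0.13 and 0.32 without WT-marrow replicate 3, and -0.04 and 0.02 in WT-marrow replicate 1 alone, which was thus near 0 for both sets. Markers of glia, neurons or vessels made up 2 of the 329 and 5 of the 435 genes of the end-stage contrast. They made up 1 and 18 of those of the stage-matched contrast. Such markers were few among all 11143 tested genes. They were 11 for astrocytes, 10 for oligodendrocytes, 3 for their precursors and 7 for neurons. A further 6 were for endothelial cells, 2 for pericytes and fibroblasts and 2 for ependymal cells. The part of other glial RNA in the medians and shares of these gene sets was not tested.

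At end stage no gene passed either. With the same fit 0 of 11143 genes (0.0%) were called by limma, 53 had an unadjusted p under 0.05 (0.476%), and the 3 WT-marrow libraries lay above the 3 G93A-marrow libraries for 2.75% of genes and below for 1.16%. The count of 53 depended on single libraries. It was 460, 14 and 352 without end-stage WT-marrow replicate 1, 2 or 3, and 21 without end-stage G93A-marrow replicate 2. Without end-stage G93A-marrow replicate 3 there were 48 higher and 71 lower. The spread is shared with the early libraries, and the count was 82 without early WT-marrow replicate 1, 74 higher and 40 lower without early WT-marrow replicate 3, and 35 without early G93A-marrow replicate 1 or 2. Limma called 0 genes in each of these fits. Mbp was at 1553, 589 and 1474 FPKM with G93A marrow and at 1295, 3002 and 2820 FPKM with WT marrow. Folr2 was at 3.71, 3.15 and 3.44 FPKM against 2.03, 2.65 and 3.35 FPKM, with overlap. Cdk1 was at 4.87, 4.29 and 4.46 FPKM against 2.73, 4.88 and 4.82 FPKM, and the cell cycle list had a median of -0.03. The test of whether the marrow difference changed between the stages called 0 genes (0.0%) with limma, with 191 genes at an unadjusted p under 0.05 (1.71%) and a smallest adjusted p of 0.901.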

How the data were processed

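RNA sequencing of CD11b-selected spinal cord microglia was used as deposited: the authors' table of grafted samples gives FPKM per gene, per the file headers, with decimal commas. FastQC, Picard, SAMtools, DESeq2 and R 3.2.5 are named, with mm10, per the submitters' processing notes; the sources used here do not give the aligner, the counting and strand rules or the read depth. Features without a gene symbol, including those of the mitochondrial genome, were left out of the tests. Columns were assigned to groups by their labels, with 1 mouse per library. Differences were fitted with limma 3.58.1 in R 4.3.3 (group means over the 12 grafted microglia libraries, trended empirical Bayes) on log2(FPKM + 1) for genes with a mean of at least 1 FPKM, with Benjamini-Hochberg adjustment and a threshold of 0.05. The same script was tested on simulated data. Non-grafted microglia were fitted separately, since the tables may have been scaled separately. Genes were named as the 10 largest differences in each direction without overlap where 1 group averaged 5 FPKM or more, up to 4 genes of each list, and a fixed set of markers and effectors. Of 540 genes in 24 program and 14 marker lists, 518 matched; the mitochondrial-encoded list matched none. Members and lists were chosen with earlier results of these data known. Alternatives covered pseudocounts, filters, scaling, glial terms, library weights, a replicate block and each library left out. FPKM carries no counts, so a count model was not used. Some genes are not reported here.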

Additional observations from a re-analysis of the deposited data

How the results depend on the processing

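No gene was called in early symptoms at pseudocounts of 0.1 or 5, without a filter on low values, at a mean of at least 5 FPKM, under the scalings tried, with glial terms or with robust empirical Bayes. Leaving out single libraries gave 0 to 1256 calls, with the highest count without WT-marrow replicate 1. Library quality weights gave 4978 calls in early symptoms and 736 for the change between stages; the weights did not converge, and the cause of the counts was not tested. Calls in non-grafted disease ranged from 357 to 1117 with single libraries left out. Of 167 named genes, 51 changed sign with glial terms, 23 with quality weights, and 14 of 162 without WT-marrow replicate 3; of 36 list medians 15, 7 and 7 did. Scaling to the homeostatic list, chosen after seeing the data as were the fits without 2 libraries, turned 10 list medians and called 0 genes.

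With a replicate block, 0 genes were called in early symptoms and the smallest adjusted p was 0.189. Deviations of libraries with the same number correlated at 0.233, 0.005 and 0.309, and G93A-marrow replicate 2 correlated best with WT-marrow replicate 1 (0.296), so the numbers were not taken to pair the mice. FPKM without depth limits what can be said of genes at a few FPKM, and 3 mice per group limit the precision throughout.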
